A study of Mus musculus with 8 samples.

Results

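A probe set on a whole-transcript array is a group of short probes summarised into a single value, and some probe sets match more than 1 gene. The report covers these shared probe sets: every one of the 35556 in the deposited table for which the platform's annotation gives at least 2 different gene symbols. There were 1613 of them, 717 naming 2 genes, 294 naming 3 and 157 naming 10 or more, with a maximum of 20. A further 8 entries repeat 1 symbol and were not members. For comparison, 21797 probe sets name 1 gene and 12146 are not listed in the annotation table used here. Their contents were mixed: 738 members name relatives by symbol (such as Hba-a1 and Hba-a2), 413 a gene with a predicted or clone name, 216 genes with unlike names, 211 predicted, clone or small RNA names alone, and 35 a gene with a small RNA.

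RNA of whole kidneys from 8 female mice of a mixed C57BL/6 - SV127 background was hybridised to Affymetrix arrays. In 4 arrays the labels give the genotype Pax8-rtTA;LC-1;Vhl-floxed, and in 4 they give control, meaning littermates whose alleles are not spelled out. Doxycycline (0.2 mg/ml in 5% sucrose) was in the drinking water of all 8 mice for 2 weeks, starting at 3 weeks of age; 1 week of plain water followed, and kidneys were taken at 6 weeks. The Pax8-rtTA and LC-1 transgenes together switch on Cre in tubule epithelium under doxycycline, so other cells of the kidney keep their floxed alleles, and a whole kidney mixes both. In bulk tissue, fewer cells of a type and less RNA per cell cannot be told apart.

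The targeted gene did not follow the labels. Vhl read 8.25, 8.32, 8.46 and 8.33 in the arrays labelled mutant and 8.01, 7.99, 7.96 and 8.22 in the arrays labelled control, on the log2 scale. Egln3, which HIF induces when VHL is lost, read 8.82 ± 0.229 against 11.8 ± 0.196 (SD, n = 4 each). Every direction below therefore compares one label with the other, and is no direction of Vhl loss. Array medians lay between 7.55 and 7.58 with all probe sets, and 0 of 8 kidney identity genes (such as Umod and Nphs1) passed the test between groups. The number of arrays limits the precision: log2 differences of members had a median standard error of 0.0747.

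Genes come to share a probe set in several ways. Tandem duplicates such as the adult globin genes keep nearly the same transcribed sequence; ribosomal protein genes have left many processed copies over the genome, which annotations often list as predicted genes; and a few neighbours, such as Rnase4 and Ang or Snurf and Snrpn, are made from a common promoter. A shared probe set gives a single value for all the genes it names, so it cannot say which gene changed.

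The sequences that follow show these kinds of sharing and are RefSeq's, from build GRCm38.p6. The promoter table held 1417 of the 2016 genes named on members. The first set covers the 110 bases before the starts of the adult globin genes, whose 4 probe sets were all called. Capitals mark the CACCC box, the CCAAT box and the TATAA box of a classical globin promoter, on either strand; in Hbb-bt a CCAAT box of either strand lies beside another in 1 run of capitals.
Hba-a1, chr11:32283562-32283671, plus strand: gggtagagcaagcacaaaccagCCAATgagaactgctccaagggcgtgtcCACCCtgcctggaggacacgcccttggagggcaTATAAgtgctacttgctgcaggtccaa
Hba-a2, chr11:32296382-32296491, plus strand: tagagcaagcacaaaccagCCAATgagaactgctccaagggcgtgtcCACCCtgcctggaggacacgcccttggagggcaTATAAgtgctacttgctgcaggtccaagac
Hbb-bs, chr7:103827929-103828038, minus strand: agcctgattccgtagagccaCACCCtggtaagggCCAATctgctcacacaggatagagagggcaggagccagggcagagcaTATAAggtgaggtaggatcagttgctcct
Hbb-bt, chr7:103813924-103814033, minus strand: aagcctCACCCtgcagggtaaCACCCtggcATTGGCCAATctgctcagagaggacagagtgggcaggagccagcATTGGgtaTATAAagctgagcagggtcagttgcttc

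The alpha-globin starts are copies of each other: shifted by 3 bases, 247 of 247 upstream bases were identical. Without gaps, 51.0% of the bases matched between Hbb-bs and Hbb-bt, and 32.1% between Hba-a1 and Hbb-bs. All 3 boxes occurred within 110 bases of the start in 0.554% of the 32851 promoters of the table. The next lines show the windows that both genes of a member have in common at their start, for the 2 called members among the 23 that share a window. Capitals mark ACGTG or GCGTG on either strand, the core that HIF recognises, which 38.6% of promoters hold within 250 bases before the start.
Rnase4 and Ang, chr14:51090967-51091076, plus strand: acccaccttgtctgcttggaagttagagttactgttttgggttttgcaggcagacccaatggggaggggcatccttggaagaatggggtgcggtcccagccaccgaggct
Snurf and Snrpn, chr7:60005200-60005309, minus strand: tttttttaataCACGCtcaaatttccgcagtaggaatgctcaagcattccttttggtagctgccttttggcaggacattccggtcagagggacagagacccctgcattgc

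The last set shows the start of 2 ribosomal protein genes, from 20 bases before to 10 after it, with CTTTC or its complement GAAAG in capitals. A run of pyrimidines at the start is typical of these genes. On the gene's own strand CTTTC is such a run, while GAAAG, as marked in Rpl15, is of purines. Either was present in 9 of the 40 windows of ribosomal protein genes and named copies on members (22.5%) and in 7.56% of all windows. These shares therefore do not measure the pyrimidine run. The 2 windows printed hold the letters, and those of Rps12 and Rps19 held neither.
Rpl7a, chr2:26910787-26910816, plus strand: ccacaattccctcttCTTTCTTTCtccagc
Rpl15, chr14:18270977-18271006, minus strand: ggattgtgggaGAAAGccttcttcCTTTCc
The miRNA miR-682 is listed with Rpl37a on 3 members, and its seed, bases 2 to 8, is in capitals.
mmu-miR-682: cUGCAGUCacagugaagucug

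Of the 1613 members, 163 (10.1%) passed limma's test at an adjusted p below 0.05 over all 35556 probe sets, where 4.44% of all probe sets passed. They leaned one way: 152 were lower and 11 higher in the arrays labelled mutant, against backgrounds of 3.41% lower and 1.04% higher. Of the 152, 122 name a ribosomal protein gene, and without these probe sets 41 of 1374 members passed (2.98%; 30 lower and 11 higher). The 4 arrays of one label lay wholly on one side of the other label's in 373 members (23.1%, background 12.6%), among them all 163. The median log2 difference was -0.01 over the members and 0.02 over all probe sets. Only 4 called members differed at least 2-fold downward and 3 upward.

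Members are not independent of each other. Linked by shared genes they formed 585 clusters, of which 299 held 1 probe set and the largest 35, and 259 members carried 8 values identical to those of another member. Calls fell in 48 clusters, in 26 of them on ribosomal protein probe sets. With the brightest probe set standing for each cluster (chosen after seeing the values), 44 of 585 were called. This was 7.52%, with 37 lower and 7 higher, where 4.44% of all probe sets passed. Where all genes placed by RefSeq lie on 1 chromosome, 21 of 1066 members were called (1.97%), and where they lie on several, 140 of 536 (26.1%), a group that holds most ribosomal protein probe sets. Called members were bright: above the upper quartile of all probe sets by mean value, 24.7% of the members passed, against 10.3% of all probe sets there. Adjusted over the several-gene probe sets alone, 286 passed (257 lower and 29 higher), but since the class was chosen with results known this is a count and no test.

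The count moved with the arrays in the fit. It was 106 with the replicate number as a block (98 lower). Leaving out mutant 2 gave 95, mutant 4 gave 81, control 1 gave 87, control 2 gave 75 and control 3 gave 78. Leaving out mutants 1 and 2 together gave 50, and mutants 3 and 4 together 81.

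**Figure D1:**
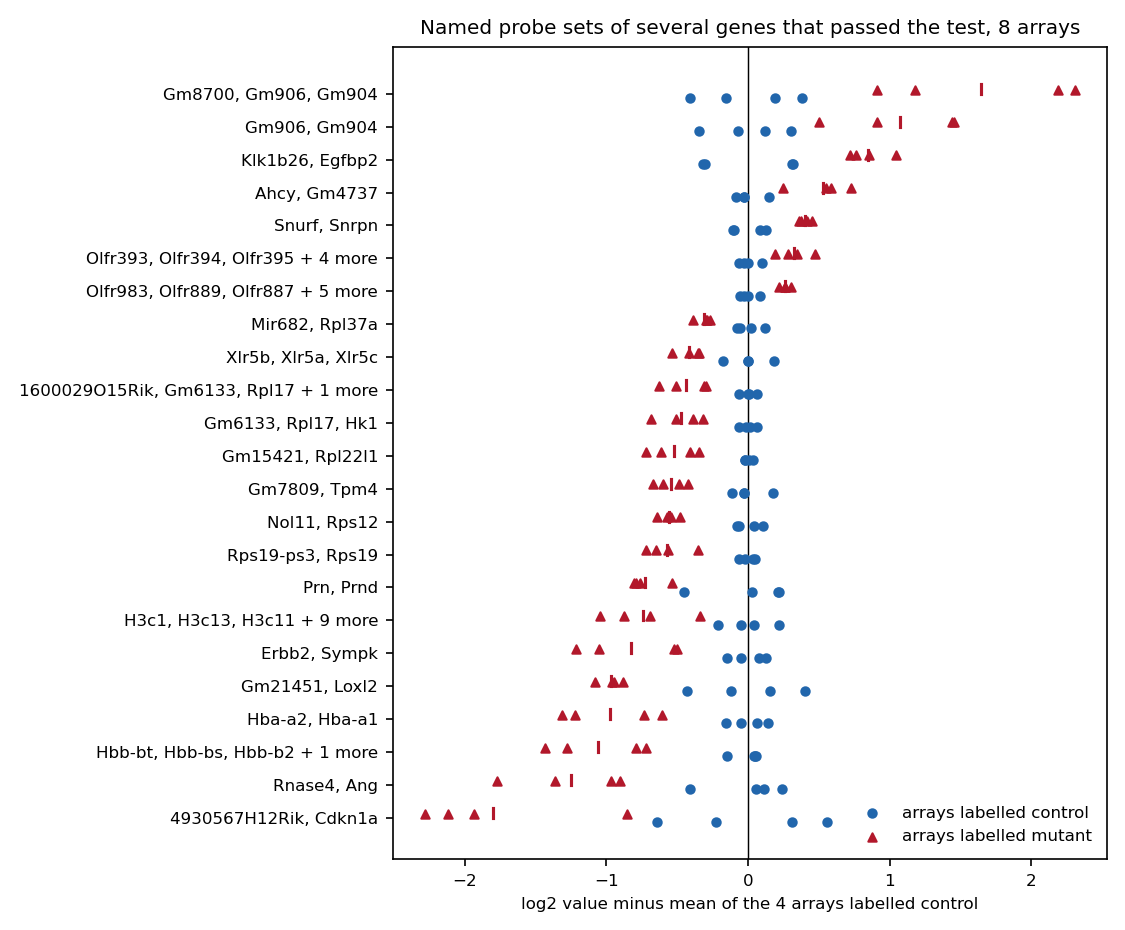
Each row is a several-gene probe set that passed the test and is described in the text; points are the 8 arrays' log2 values minus the mean of the 4 arrays labelled control, and the short bar is the mean of the arrays labelled mutant. In every row the triangles (labelled mutant) lie wholly on one side of the circles (labelled control), from a mean of -1.80 for Cdkn1a with 4930567H12Rik to 1.65 for Gm8700, Gm906 and Gm904.

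The adult globin genes, which encode the oxygen carrier of red cells, were lower by about the same amount on each of their 4 probe sets in the arrays labelled mutant. The beta-globin probe set with the larger change, naming Hbb-bt, Hbb-bs, Hbb-b2 and Hbb-b1, read 12.63, 13.12, 12.48 and 13.19 in the arrays labelled mutant and 13.95, 13.97, 13.76 and 13.96 in the arrays labelled control. The groups did not overlap, and mutant arrays 1 and 3 were the lowest. This was 2.08-fold lower (log2 difference -1.06, SE 0.159; limma adjusted p = 0.00990). The alpha-globin probe set, naming Hba-a2 and Hba-a1, read 12.45, 13.06, 12.36 and 12.94 against 13.82, 13.74, 13.52 and 13.62. It was 1.96-fold lower (log2 difference -0.97, SE 0.161; limma adjusted p = 0.0136), with the same arrays lowest. The other probe set of each pair gave -1.05 and -0.95.

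The embryonic globin genes have probe sets of their own and did not pass: the log2 differences were 0.01 for Hba-x, -0.09 for Hbb-y and -0.23 for Hbb-bh1. Of 11 measured genes that mark red-cell precursors 4 fell and 0 rose, with a median log2 difference of -0.16. The list's mean lay at 7.81 to 7.93 in the arrays labelled mutant and at 8.11 to 8.54 in the arrays labelled control. Alas2, the erythroid enzyme of haem synthesis, was 4.74-fold lower (8.60 ± 0.473 against 10.8 ± 0.388, SD, n = 4 each). Gata1 and Klf1, the erythroid transcription factors, gave 0.02 and -0.11 and did not pass. They read 6.97 to 7.24 and 7.13 to 7.49, about the level of Hba-x (7.33 to 7.44), so they may read background. Slc4a1, the band 3 anion exchanger, gave 0.25 and did not pass, but it is also on the list of collecting duct markers and does not read red cells alone. The part of red-cell number in the globin result was not tested. All 4 globin calls held with the replicate block (limma adjusted p from 0.0270 to 0.0370), and 3 of 4 held on leaving out control 2, mutants 1 and 2 together, or mutants 3 and 4 together.

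**Figure D2:**
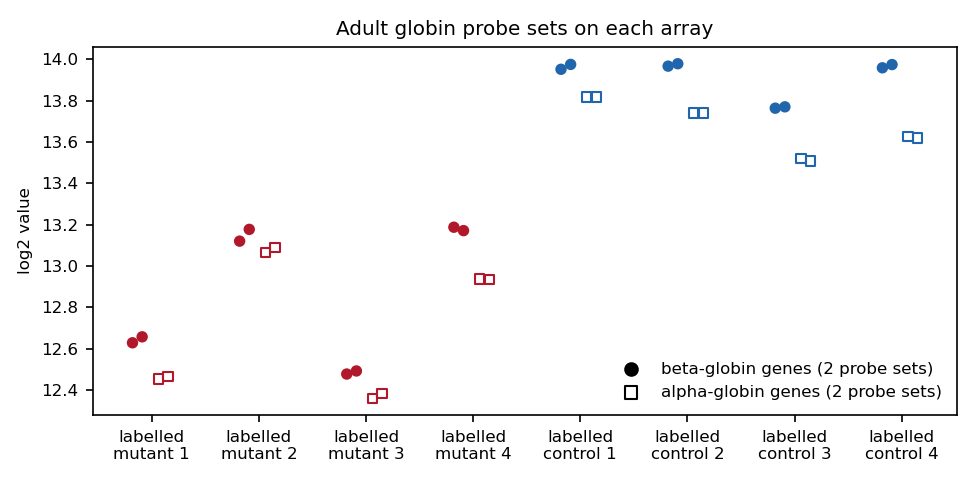
Log2 values of the 4 adult globin probe sets (circles beta, open squares alpha) on each of the 8 arrays. All values of the arrays labelled mutant (red, 12.36 to 13.19) lie below all values of the arrays labelled control (blue, 13.51 to 13.98).

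Ribosomal protein genes made up most of the calls. These genes encode the structural proteins of the ribosome and are among the most strongly expressed in any cell. Of 239 members naming one, 122 were lower, 0 were higher and 117 did not pass, where 3.41% of all probe sets were lower. The median log2 difference was -0.27, the difference was below zero in 238, and the 4 arrays of each label did not overlap in 222 (background for lower 7.72%). The mean over the 239 was 11.73, 11.61, 11.76 and 11.68 in the arrays labelled mutant and 11.96 to 12.01 in the arrays labelled control. The shift was small and present in all 4 arrays. Calls fell in 26 of 36 clusters.

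Of 39 ribosomal protein genes on shared probe sets, 22 were lower on every one of them and 28 on at least 1. Rpl17 was lower on 17 of 17 probe sets (median log2 difference -0.43), Rpl7a on 17 of 17 (-0.28), Rpl15 on 8 of 8 (-0.32), Rpl3 on 7 of 7 (-0.43) and Rps23 on 6 of 6 (-0.40). Others did not pass on any: Rpl29 on 0 of 35 (-0.20), Rpl21 on 0 of 32 (-0.17), Rpl35a on 0 of 12 (-0.24) and Rpl30 on 0 of 10 (-0.32). Rps2 passed on 9 of 17 (-0.23).

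The largest falls of the group were at Rps19 and Rps12, both of the small subunit. Rps19, whose human counterpart is mutated in Diamond-Blackfan anaemia, read 9.80, 9.44, 9.59 and 9.50 with its copy Rps19-ps3 in the arrays labelled mutant and 10.09, 10.20, 10.19 and 10.13 in the arrays labelled control. The groups lay apart, and mutant array 1 was nearest to the controls. It was 1.49-fold lower (log2 difference -0.57, SE 0.0812; limma adjusted p = 0.00797), a call that ended without mutants 3 and 4 together (0.0514). The probe set of Rps12 with Nol11, a factor of ribosomal RNA processing, read 10.04, 9.88, 9.98 and 9.95 against 10.46, 10.63, 10.56 and 10.44. It was 1.47-fold lower (log2 difference -0.56, SE 0.0628; limma adjusted p = 0.00357). Rps12 was lower on all 14 of its own probe sets (median -0.62), several of which gave the same log2 difference and are not separate results. Nol11's own probe set gave -0.14. The own probe set of Rps19 gave -0.40 and did not pass (limma adjusted p = 0.0717). Rpl22l1, a paralogue of Rpl22, read 6.49, 6.59, 6.86 and 6.79 with Gm15421 against 7.21, 7.24, 7.18 and 7.18. It was 1.44-fold lower (limma adjusted p = 0.0121).

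Probe sets that name 1 ribosomal protein gene moved the same way, with 144 of 220 lower, 0 higher and a median of -0.34. Own probe sets of the partner genes varied, from -0.45 for Gm5779 to 0.30 for Syngr1. Zfp526, listed with Rpl13a, was at 0.04, Clpb, listed with Rpl31, at -0.03, Camkv, listed with Rpl21, at 0.05 and Cep170, listed with ribosomal genes on 23 members, at -0.38. Hk1, the hexokinase gene of glycolysis, is listed with Rpl17 on 16 members, all called. Its 2 own probe sets gave 0.13, which did not pass, and -0.34, which did (limma adjusted p = 0.0446). The first had a mean of 10.4 in the arrays labelled control and the second 12.6. The shared probe set that changed most (-0.48) differed in group difference by -0.61 from the first and by -0.14 from the second. Neither difference passed. Whether the second reads Hk1 or the signal of Rpl17 was not tested. The 16 shared probe sets were all the calls in the list of glycolysis and HIF target genes. Its other 25 members name Gapdh, a glycolytic enzyme; none passed and their median was -0.14, with the arrays apart in all 25 (background for lower 7.72%); these 25 are linked by Gapdh and are not separate results.

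The ribosomal count depended on the arrays more than its direction did. It was 77 with the replicate block. Leaving out mutant 2 gave 81, mutant 4 gave 66, control 1 gave 68, control 2 gave 64 and control 3 gave 67. Leaving out mutants 1 and 2 together gave 27 and mutants 3 and 4 together 47. In these pairwise settings and with the block, 238 of the 239 still lay below zero. Quantile normalization moved the median to -0.22, with 105 lower.

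**Figure D3:**
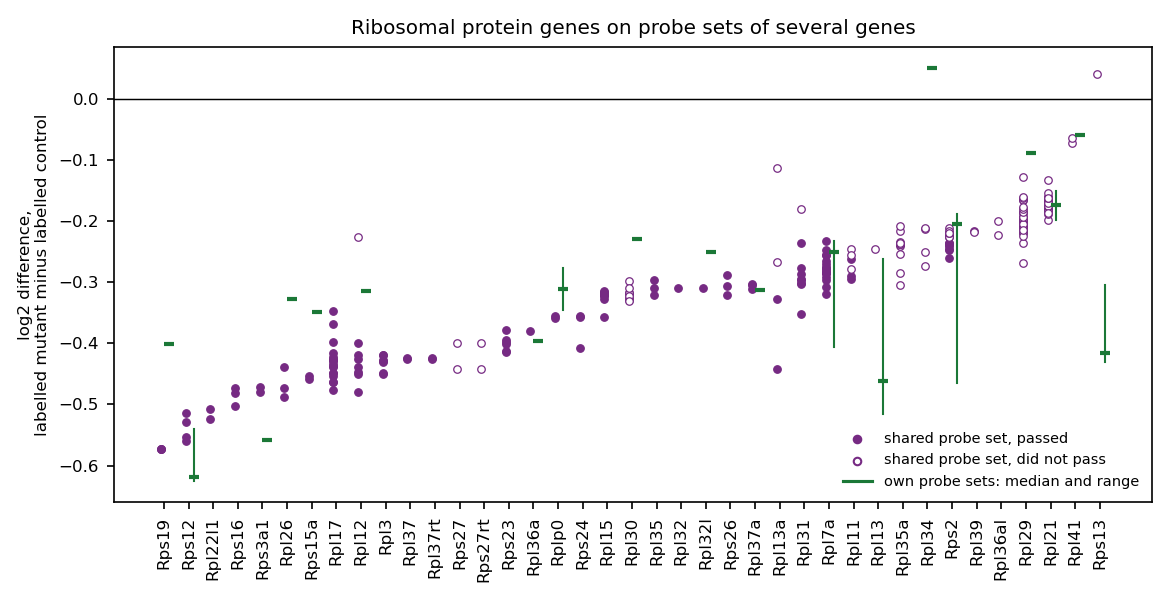
Log2 difference (labelled mutant minus labelled control) of each probe set that a ribosomal protein gene shares with another gene, ordered by gene; filled circles passed the test, open circles did not, and the green bar and line give the median and range of that gene's own probe sets. Nearly all lie below zero, with medians from -0.57 for Rps19 to 0.04 for Rps13.

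The replication-dependent H3 histone genes, which supply the H3 of newly copied chromatin, were lower where they share probe sets. The 10 probe sets naming the same 12 genes (H3c1 to H3c15) were all called, with log2 differences from -0.74 to -0.69; 2 other members of their cluster did not pass. The own probe sets of H3c4, H3c7 and H3c15 gave 0.03, 0.06 and 0.21 and did not pass, so which of the 12 genes changed is not given by these values. The one with the largest change read 11.27, 10.92, 10.57 and 10.73 in the arrays labelled mutant and 11.83, 11.56, 11.65 and 11.40 in the arrays labelled control, 1.67-fold lower (SE 0.153; limma adjusted p = 0.0320). Mutant array 1 came nearest to the controls. The other 22 histone members, of H2A, H2B and H4 genes among others, did not pass, and the median over all 32 was -0.17. Of 7 measured proliferation genes 2 fell, Mki67 (1.98-fold) and Ccna2, cyclin A2 (1.80-fold), 0 rose and the median was -0.59. The part of dividing cells was not tested. Leaving out mutant 2, 3 or 4, control 1, 2 or 3, or mutants 3 and 4 together, ended all 10 calls (for that probe set, limma adjusted p of 0.0651 to 0.0957 with 1 array out); 5 passed after quantile normalization.

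The largest fall of any member was at the cell cycle inhibitor gene Cdkn1a, sharing its probe set with the clone name 4930567H12Rik. It read 9.12, 8.95, 9.29 and 10.38 in the arrays labelled mutant and 10.59, 11.01, 11.54 and 11.79 in the arrays labelled control. Mutant array 4 lay just below control array 1, and the other 3 well below. This was 3.48-fold lower (log2 difference -1.80, SE 0.353; limma adjusted p = 0.0265). Leaving out mutant 1, 2 or 3 or control 2, 3 or 4 ended the call (limma adjusted p of 0.0616 to 0.0861), as did leaving out mutants 1 and 2 together (0.180).

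Rnase4 and Ang, secreted ribonucleases transcribed from the common window printed above, read 9.03, 8.57, 8.16 and 8.97 against 9.99, 10.17, 10.05 and 9.52. The groups were apart, and the probe set was 2.38-fold lower (log2 difference -1.25, SE 0.210; limma adjusted p = 0.0143). With the replicate block it was not called (0.0582), nor on leaving out control 2 or 3 (0.0502 to 0.0509) or mutants 1 and 2 together (0.0646). Loxl2, a lysyl oxidase that crosslinks collagen and is a textbook HIF target, shared its probe set with Gm21451. It read 8.28, 8.08, 8.22 and 8.20 against 9.04, 9.32, 9.56 and 8.73, 1.96-fold lower (log2 difference -0.97, SE 0.159; limma adjusted p = 0.0132). The arrays labelled mutant lay close together, the controls did not. It kept its call without any single array, but not without mutants 1 and 2 together or mutants 3 and 4 together (up to 0.0971). All 7 endothelial marker genes, a list that includes no member, were lower, with a median log2 difference of -0.70 and a list mean of 10.1 to 10.2 in the arrays labelled mutant against 10.74 to 10.95; their part in these falls was not tested.

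The probe set of Erbb2, a receptor tyrosine kinase, and Sympk, an mRNA 3′-end processing factor, read 7.58, 7.05, 6.89 and 7.60 against 7.95, 8.18, 8.23 and 8.05. It was 1.77-fold lower (log2 difference -0.82, SE 0.166; limma adjusted p = 0.0292). The 2 genes are not relatives, and Erbb2's own probe set gave 0.00; the 3 own probe sets of Sympk gave 0.01, -0.15 and -0.15, the last 2 with identical values, and did not pass. The block ended the call (0.0904), as did leaving out mutant 2 or any 1 control (0.0577 to 0.0923), or mutants 1 and 2 or mutants 3 and 4 together. Prn with Prnd, the gene of the prion-like protein doppel, read 6.32, 6.59, 6.36 and 6.33 against 7.34, 7.15, 7.33 and 6.67, 1.65-fold lower (SE 0.148; limma adjusted p = 0.0302). Own Prn gave -0.02. The block ended the call (0.0551), as did leaving out any 1 mutant or control 1, 2 or 3 (0.0523 to 0.0919), or mutants 1 and 2 or mutants 3 and 4 together (up to 0.116).

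Tpm4, a tropomyosin of the actin cytoskeleton, fell together with Gm7809. The values were 11.52, 11.45, 11.69 and 11.63 against 12.09, 12.29 and 12.09 in control arrays 2 to 4 and 12.004 in control array 1, 1.46-fold lower (log2 difference -0.54, SE 0.0804; limma adjusted p = 0.00920), and its own probe set gave -0.38. It kept its call without any single array and lost it without mutants 1 and 2 together (0.0711). The other 12 cytoskeleton members did not pass, and their differences were all below zero. Npm1, a nucleolar chaperone of ribosome assembly, was called on all 3 probe sets that it shares with Gm15484 (-0.48 to -0.52) and on its own (-0.56). Plac9 genes fell slightly on 3 probe sets (-0.26 each), Hjurp, the CENP-A chaperone, on 1 (-0.52) and Ptma, prothymosin alpha, on 1 (-0.21). The block ended the calls of Plac9 (limma adjusted p of 0.0539 to 0.0632) and of Ptma (0.106). Mir682 with Rpl37a was 1.24-fold lower on the one of its 3 probe sets that changed most (limma adjusted p = 0.0252, with the block 0.0862), and Rpl37a's own probe set was at -0.31. Leaving out mutant 2, 3 or 4 or control 1, 2 or 3 gave a limma adjusted p of 0.0518 to 0.0799. The call also ended without mutants 1 and 2 or mutants 3 and 4 together (up to 0.125). The Xlr5 genes, X-linked and of the germ line, read 5.94, 5.87, 5.75 and 5.94 against 6.11, 6.48, 6.29 and 6.29, 1.33-fold lower (limma adjusted p = 0.0295, with the block 0.0751). Leaving out any 1 mutant or control 2, 3 or 4 ended this call too (0.0512 to 0.0858), as did leaving out mutants 1 and 2 or mutants 3 and 4 together (limma adjusted p up to 0.121). The other probe set naming the same Xlr5 genes gave -0.25 and did not pass. The values labelled mutant lay below 6.15, the highest level of the unexpressed Y-linked members described below. Of 147 members naming germ-line multicopy genes this was the 1 call, where 3.41% of all probe sets were lower.

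Few members were higher in the arrays labelled mutant. The tissue kallikreins are serine proteases made mainly in the connecting tubule in kidney. Klk1b26 with Egfbp2 read 7.52, 7.72, 7.39 and 7.44 in the arrays labelled mutant and 6.98, 6.37, 6.35 and 6.98 in the arrays labelled control, 1.80-fold higher (log2 difference 0.85, SE 0.167; limma adjusted p = 0.0272). The groups were apart, with control arrays 1 and 4 nearest. The block ended the call (0.0657), as did leaving out any 1 mutant or control 2 or 3 (0.0508 to 0.0821), or mutants 1 and 2 or mutants 3 and 4 together (up to 0.179). The other member matched by the kallikrein list, of another cluster, names Klkb1 and Cyp4v3 and no Klk1b gene, and was at -0.06. Of 10 own probe sets of Klk1b genes 4 were higher and 0 lower: Klk1b5 (0.84), Klk1b8 (0.67), Klk1b9 (0.63) and Klk1b11 (0.59). Klk1b22 was split within the arrays labelled control, at 10.86, 10.07, 6.52 and 6.87, and all 4 arrays labelled mutant lay between at 7.19 to 7.72. Of 8 distal and connecting tubule markers 3 rose, Calb1 (1.45-fold), S100g (1.87-fold) and Trpm6 (1.64-fold), and 0 fell. The other 5 did not pass, from -0.20 for Trpv5 and -0.14 for Atp2b1 to 0.45 for Slc8a1, and the list's median was 0.35. The part of these tubule segments in the kallikrein values was not tested.

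Ahcy, which hydrolyses S-adenosylhomocysteine, was higher on all 3 probe sets that it shares with Gm4737. The one that changed most read 11.89, 12.19, 12.23 and 12.37 against 11.62, 11.61, 11.56 and 11.79, 1.44-fold higher (log2 difference 0.53, SE 0.103; limma adjusted p = 0.0259). Leaving out mutant 2, 3 or 4 or control 1, 2 or 3 ended the call (0.0595 to 0.0850), as did leaving out mutants 3 and 4 together (0.0920). Snurf and Snrpn, an imprinted pair of a nuclear protein and a splicing factor on a common promoter, read 8.60, 8.59, 8.69 and 8.65 against 8.12, 8.13, 8.36 and 8.32, 1.32-fold higher (SE 0.0683; limma adjusted p = 0.0151). Leaving out control 2 ended the call (0.0503), as did leaving out mutants 1 and 2 or mutants 3 and 4 together (up to 0.0762). The largest rises had no studied gene: Gm8700, Gm906 and Gm904 read 8.36, 8.09, 9.37 and 9.49 against 7.37, 6.77, 7.02 and 7.56, 3.13-fold higher (log2 difference 1.65, SE 0.331; limma adjusted p = 0.0288). Mutant arrays 3 and 4 were the highest. The probe set was named after its values were seen, and leaving out mutant 3 or 4 or control 1, 2 or 3 ended the call (0.0634 to 0.0901). Leaving out mutants 3 and 4 together ended it too.

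Of 166 members naming olfactory and other chemosensory receptors 2 rose (1.20%), against 1.04% of all probe sets, and 0 fell. They read 5.86 to 6.15 against 5.60 to 5.77 (Olfr393 and 6 others, 0.32) and 4.84 to 4.93 against 4.57 to 4.71 (Olfr983 and 7 others, 0.26), low on the array's scale, where differences are compressed. With the block neither passed (limma adjusted p = 0.0520 and 0.0764). Leaving out mutant 1, 2 or 3 or control 1, 2 or 4 ended each call, leaving out control 3 the first and mutant 4 the second (0.0547 to 0.120 in all). Neither call held without mutants 1 and 2 together or without mutants 3 and 4 together.

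Immunoglobulin and MHC members were higher in mutant arrays 1 and 2 than in mutant arrays 3 and 4, and some interferon-induced members likewise. The 16 immunoglobulin members, whose genes encode antibody chains, had a median log2 difference of 0.84, and 0 passed; 7 did not overlap between groups (background for higher 4.85%). Relative to the mean of the controls, the median was 1.16 and 1.97 in mutant arrays 1 and 2, but 0.10 and 0.25 in mutant arrays 3 and 4. In 15 of 16 mutant arrays 1 and 2 lay above all 6 other arrays, as they did in 14.2% of all probe sets and 14.5% of the members; this pattern was chosen after the values were seen. The kappa variable genes Igkv1-133 and Igkv1-135, with the largest value, read 9.50, 8.02, 5.23 and 5.34 in the arrays labelled mutant and 5.14, 5.41, 5.13 and 5.41 in the arrays labelled control (log2 difference 1.75, limma adjusted p = 0.342). Leaving out mutants 3 and 4 the median was 1.34, and leaving out mutants 1 and 2 it was 0.18, a split that follows values already seen and is given as a description. Of the B and plasma cell list 0 of 8 passed, with a median of 0.05. Mzb1, Sdc1, Cd79a and Ms4a1 gave 0.00, -0.02, -0.09 and 0.02, and Pax5, Cd79b and Tnfrsf17 gave 0.09, 0.10 and 0.20. Cd79a and Ms4a1 read 5.25 to 5.86, within the range of the Y-linked members described below, where differences are compressed. Jchain, which joins immunoglobulin A and M chains, read 7.28, 8.60, 5.98 and 5.97 against 5.45, 5.38, 5.62 and 5.46.

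Mutant arrays 1 and 2 lay above all others in 8 of 8 MHC members, whose genes present antigen, and in 8 of 17 members of interferon-induced and Ly6 families. H2-DMb2 with H2-DMb1, which load peptides on class II molecules, read 10.07, 9.05, 8.14 and 8.15 against 8.12, 8.34, 8.26 and 8.12 (log2 difference 0.64, limma adjusted p = 0.432). Tgtp2 with Tgtp1, interferon-induced GTPases, read 11.37, 9.90, 8.20 and 8.23 against 9.07, 9.02, 8.81 and 8.58 (0.56, limma adjusted p = 0.690). Here mutant arrays 3 and 4 lay below all controls. The interferon list of single genes had 1 of 6 lower and 0 higher.

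**Figure D4:**
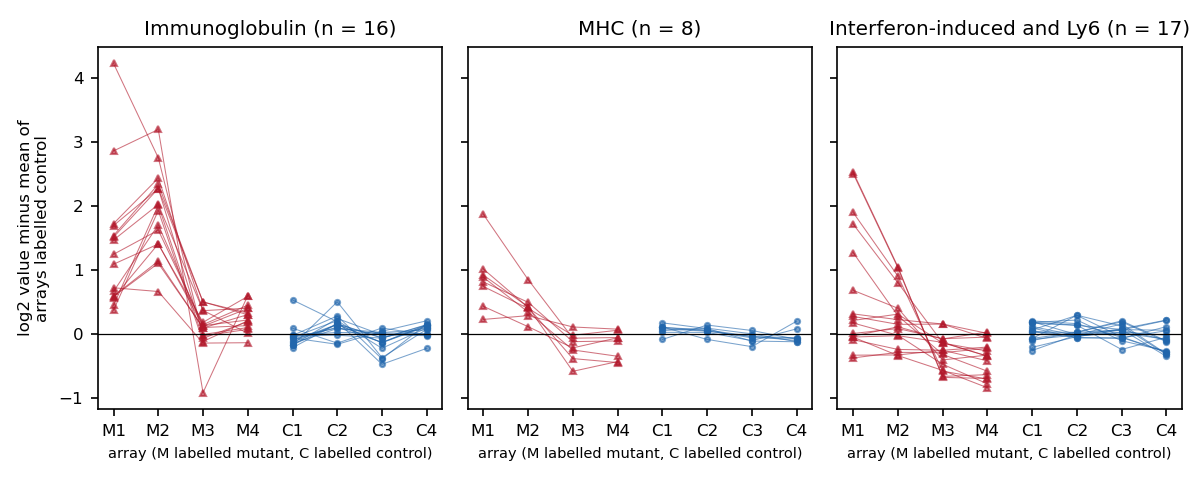
Log2 value minus the mean of the 4 arrays labelled control for each immunoglobulin, MHC and interferon-induced or Ly6 member; lines join the values of a probe set and do not imply an order of mice. Immunoglobulins have the largest deviations, in arrays M1 and M2, with medians of 1.16 and 1.97, while M3 and M4 lie near zero.

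Other families did not pass the test. Serpina1 genes, which encode alpha-1 antitrypsin, read 7.33, 6.92, 9.16 and 9.52 in the arrays labelled mutant and 8.17, 7.503, 9.25 and 9.05 in the arrays labelled control on one probe set (limma adjusted p = 0.860), so arrays 3 and 4 were high under both labels. The chemokine genes Ccl27a and Ccl27b read 10.12, 10.01, 10.10 and 9.51 against 8.69, 9.91, 8.64 and 8.52 (log2 difference 0.995, limma adjusted p = 0.119); leaving out control 2, which alone was high, the difference was 1.32 and passed (0.0115). Slc22a28, Slc22a29 and Slc22a30, organic anion transporters, were at -0.57 (limma adjusted p = 0.0668), and passed on leaving out control 4 (-0.68, limma adjusted p = 0.0259). Ugt3a2 with Ugt3a1, glycosyltransferases, read 12.90, 12.83, 12.95 and 12.93 against 12.74, 12.62, 12.68 and 12.71 (0.21, limma adjusted p = 0.0620), with no overlap. Gsta1 and Gsta2, glutathione transferases, gave 0.43 on 4 probe sets and none passed. The Snord14 cluster within Hspa8 gave 0.35, Cyp3a41a with its relatives -0.64, major urinary protein genes -0.44, Rex2 with zinc finger genes -0.32, Aldh3b2 with Aldh3b3 0.28, Pcdha genes 0.13, Ndufs5 0.14, ND6 with Acsm2 -0.14, C1qtnf5 with Mfrp 0.07 and defensins at most 0.08, and none of these passed. There was no member of the renin list. The 64 members of Y-linked families, which female mice lack, read 3.47 to 6.15 with 0 calls and give the level of unexpressed genes on these probe sets. Unexpressed genes on other probe sets may read higher. The embryonic globin gene Hba-x read 7.33 to 7.44.

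Where a gene of a member also had a probe set of its own, the pair was compared on each array. Of 2297 such pairs over 909 members 17 (0.740%) differed in their group difference, limma adjusted over all pairs, from 9 gene sets. The probe sets of Rpl3, Ralgps2 and Syngr1, the last a synaptic vesicle protein, were lower by -0.43 while Syngr1's own was at 0.30 (difference of differences -0.73, limma adjusted p = 0.00596 and 0.00946 for the 2 probe sets). Those of Rpl13a and Zfp526 gave -0.44 and -0.33 against 0.04. For the H3 histones 1 of the 10 differed from H3c7's own, which read 5.25 ± 0.118 against 5.19 ± 0.0772 (SD, n = 4 each). The H2b probe sets (-0.17 to -0.08) differed from H2bc4's own (0.24), Ugt3a2 with Ugt3a1 (0.19) from Ugt3a1's own (0.43) alpha-tubulin genes (-0.24 to -0.16) from Tuba1a's own (-0.49), and Pirb with Lilra6 and relatives, receptors of white blood cells (-0.24), from Lilra6's own (0.06). With the replicate block none of the 2297 differed. Leaving out mutant 1 gave 43 and control 1 gave 40, while leaving out mutant 2, 3 or 4 or control 2 or 3 gave 1 to 5. Leaving out mutants 3 and 4 together gave 6.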

How the data were processed

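The values were the authors' deposited log2 table of 35556 probe sets and 8 arrays; their background correction, summarisation, normalization and genome build stay unstated (not given in the sources used here). Limma, with no version, is the tool listed in the submitters' processing notes. Probe sets were assigned from the platform's annotation, and genes were placed with RefSeq's GRCm38.p6 tables for names and neighbours. Each probe set was fitted in R 4.3.3 by limma 3.58.1 (lmFit, then eBayes, labelled mutant minus labelled control, no filter), Benjamini-Hochberg adjusted over the whole table, and called at an adjusted p under 0.05. Described were the 12 largest rises and falls among called members with a studied gene and arrays apart, and from each of 28 families the 2 called members that changed most, or the 1 that changed most where none was called. Members and lists were chosen with earlier results of these data known. P-values measure the spread between these mice.

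Same-numbered arrays were taken as pairs because their deviations from the group means correlated above 0.1 in every pair (0.103, 0.106, 0.241 and 0.134 over all probe sets), although the labels do not say what a number marks and other pairs also correlated among members (mutant 2 with control 1, 0.193). A fit with the number as a block is given where it changed the call of a probe set described by itself, and otherwise as counts. On simulated data of 35556 probe sets 55% of 0.5 log2 changes and 83% of 1 log2 changes were called, with 10 false among 148 calls. For 2297 pairs it was 73% and 99%, with 14 false among 186. The simulation drew each probe set or pair independently and changed few probe sets. Members here are linked, so these rates need not hold for the deposited table.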

Additional observations from a re-analysis of the deposited data

Results flagged for a closer look

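Among 88 groups of 4 arrays tested, 5 held an array far from the other 3, and chance gives about 1 in 20. Control array 3 read 13.76 on the beta-globin probe set, below the other controls (13.95 to 13.97). Mutant array 2 read 6.59 on Prn with Prnd, above the others (6.32 to 6.36). Control array 2 read 9.91 on Ccl27a and Ccl27b, where the others read 8.52 to 8.69. Control array 3 read 10.03 on Gsta1 and Gsta2 (others 10.49 to 10.56), and mutant array 3 read 8.78 on Ndufs5 (others 8.59 to 8.61). No cause was tested.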

How the results depend on the processing

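Against 163 called members (152 lower, 11 higher), the replicate block gave 106 (98 lower). Cluster counts here are of clusters whose brightest probe set was called, 44 in the main fit and 28 with the block. The upper 60% of probe sets by mean gave 253 (237 lower), eBayes with trend and robust 274 (262 lower), and the probe sets the platform table names alone 241 (221 lower, 20 higher), where ribosomal protein calls rose from 122 to 171. Leaving out 1 array gave 75 to 139 called, 2 to 10 higher, 72 to 130 lower and 21 to 39 clusters; without mutant arrays 1 and 2 it gave 50 (6 higher, 44 lower; 12 clusters), and without mutant arrays 3 and 4 81 (18 higher, 63 lower; 29 clusters). Adjustment over the several-gene probe sets alone gave 286 (29 higher, 257 lower; 69 clusters), an adjusted p under 0.01 40 (0 higher, 40 lower; 12 clusters), and at least 1.5-fold 23 (4 higher, 19 lower; 9 clusters). For 17 pairs of shared and own probe sets, counts were 85 in the upper 60%, 10 with trend and robust, 72 with array weights, 0 with the replicate block, 1 to 43 leaving out 1 array and 6 without mutant arrays 3 and 4. Family medians near zero changed sign: chemosensory receptors to -0.0264 in the upper 60%, and small RNAs, from -0.0161 to 0.0463 leaving out 1 array (-0.00130 without control 1), to -0.00796 without mutants 3 and 4. Of 25 called and described probe sets 3 kept their call in every setting. Arrays give no depth; values near 4 to 5 lie in the range of unexpressed genes.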
